A study of Mus musculus with 2 samples.

Results

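Proliferating Sertoli cells were examined in single-cell RNA-seq libraries of postnatal day (PD) 7 mouse testes. They were selected on measured UMI counts, UMIs being the molecular identifiers that count single transcripts. The quality limits were 750 genes with a UMI and no more than 10% of UMIs from mitochondrial genes. Per 10000 of its UMIs it had to hold at least 10 from the Sertoli genes *Clu*, *Amhr2*, *Rhox8* and *Cst9*. It had to hold fewer than 10 from *Acta2*, *Myh11* and *Tagln*, fewer than 10 from *Dlk1* and *Dcn*, and fewer than 2 from *Ddx4* and *Dazl*. It also had to hold at least 3 from the cycle genes *Mki67*, *Top2a*, *Ube2c*, *Cdk1* and *Prc1*. Of 13789 cells that passed the quality limits, 2294 met the rule, 739 of 5077 in the control library and 1555 of 8712 in the *Brca1* vKO library. The Sertoli cells that met every limit except the last, 1585 and 2959 cells, are called non-cycling here.

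The series holds 1 library of each genotype, control and *Brca1* vKO, so no difference between genotypes has a replicate check. *Brca1* vKO mice carried 1 floxed and 1 deleted *Brca1* allele (Brca1 f/-) and a *Vasa*-Cre transgene that recombines the floxed allele in germ cells. By this design their Sertoli cells would hold 1 deleted allele and an unrecombined floxed allele, which was not tested here. The control genotype is not further specified by the labels. Intervals given below are exact 95% intervals and cover counting error only.

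Sertoli cells are the somatic cells of the seminiferous tubule. They nurse germ cells, and their number, set largely by division before puberty, limits how many germ cells a testis can support. Dividing cells copy their DNA in S phase, when replication factors and histones are made, and then switch on the spindle, kinetochore and cytokinesis genes used in G2 and mitosis. These later genes are transcribed in a wave that depends on the MuvB complex with B-MYB and FOXM1, and many of their promoters carry CCAAT boxes and a cell cycle homology region (CHR).

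Promoters were therefore examined from 250 bases before to 50 bases after the RefSeq gene start in GRCm38.p6. The letters searched on both strands were TTTGAA for the CHR, CCAAT for the CCAAT box, and TTTCCCGC, TTTCGCGC, TTTGCCGC or TTTGGCGC for the E2F site of S-phase genes. Among 32851 promoters of this length, 17.9% held the CHR letters, 37.4% the CCAAT letters, 6.95% both and 2.26% an E2F match. All 6 promoters of the 5 cycle genes in the rule held both the CHR and the CCAAT letters. In the list of 50 G2 and mitosis genes, 43 genes matched with 48 promoters, of which 62.5% held the CHR, 72.9% CCAAT, 47.9% both and 4.17% an E2F match. In the list of 43 S-phase genes, 31 matched with 34 promoters, of which 17.6% held the CHR, 67.6% CCAAT, 11.8% both and 35.3% an E2F match. Of 15 promoters of the Sertoli identity genes, 6.67% held the CHR letters. These counts describe letters in a window and not bound sites. The following promoters are shown because *Top2a* and *Ube2c* had the most UMIs among the cycle genes of the rule, *Tubb4b* is a G2 and mitosis gene outside the rule, and *Pola1* had the most UMIs among S-phase genes with an E2F match. Capitals mark the CHR and CCAAT letters in the first 3 and the E2F letters in *Pola1*, on either strand, and in *Ube2c* matches on opposite strands overlap.
*Top2a*, chr11:99024140-99024439, minus strand: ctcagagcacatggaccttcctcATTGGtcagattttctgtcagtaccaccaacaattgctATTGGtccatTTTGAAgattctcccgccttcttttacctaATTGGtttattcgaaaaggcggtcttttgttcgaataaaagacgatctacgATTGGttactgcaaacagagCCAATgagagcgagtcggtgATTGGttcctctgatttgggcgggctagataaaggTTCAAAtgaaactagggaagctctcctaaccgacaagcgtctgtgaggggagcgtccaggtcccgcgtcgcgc
*Ube2c*, chr2:164769679-164769978, plus strand: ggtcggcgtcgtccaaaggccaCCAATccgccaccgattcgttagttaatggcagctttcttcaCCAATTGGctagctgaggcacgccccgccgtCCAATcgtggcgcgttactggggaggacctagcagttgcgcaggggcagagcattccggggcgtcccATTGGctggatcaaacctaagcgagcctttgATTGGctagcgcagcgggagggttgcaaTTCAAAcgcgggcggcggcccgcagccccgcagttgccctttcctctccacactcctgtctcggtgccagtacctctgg
*Tubb4b*, chr2:25224653-25224952, minus strand: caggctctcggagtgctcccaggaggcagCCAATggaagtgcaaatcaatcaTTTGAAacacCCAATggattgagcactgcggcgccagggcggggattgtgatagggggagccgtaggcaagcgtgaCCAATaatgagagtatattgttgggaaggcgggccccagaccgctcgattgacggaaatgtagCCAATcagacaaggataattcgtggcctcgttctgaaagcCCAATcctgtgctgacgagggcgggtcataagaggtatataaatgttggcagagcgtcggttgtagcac
*Pola1*, chrX:93632106-93632405, minus strand: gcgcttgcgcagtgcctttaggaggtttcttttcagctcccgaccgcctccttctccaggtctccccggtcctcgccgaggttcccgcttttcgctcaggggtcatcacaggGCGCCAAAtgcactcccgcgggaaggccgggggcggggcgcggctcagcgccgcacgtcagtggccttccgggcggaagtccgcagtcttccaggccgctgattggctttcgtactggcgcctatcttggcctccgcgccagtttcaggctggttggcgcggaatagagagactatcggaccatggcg
The *Top2a* promoter held 2 CHR and 6 CCAAT matches, that of *Ube2c* held 1 and 6, that of *Tubb4b* 1 and 5, and that of *Pola1* 1 E2F match and 1 CCAAT match that is not in capitals.

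The members were deeply sequenced. Their median was 21129 UMIs and 5491 genes per cell in the control library and 20703 UMIs and 5585 genes in that of the *Brca1* vKO, against 17100 and 13574 UMIs in non-cycling Sertoli cells. Summed over members, the control gave 21046409 UMIs and the *Brca1* vKO 46508707. Levels below are UMIs per 1000000 of such a sum (CPM). Levels are compared within a gene and not between genes. Scrublet marked 5 members in the control library and 10 in that of the *Brca1* vKO as likely doublets, 0.677% and 0.643%. The libraries shared 21 barcodes, of which 2 belonged to control members, 4 to *Brca1* vKO members and 0 to members in both.

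The Sertoli label is described here with genes the rule did not use, although the cells themselves were chosen on correlated genes. *Aard* was at 3042 CPM in control and 3252 in *Brca1* vKO members, against 152 and 248 in cycling stromal cells, the 93 and 174 cells with at least 10 *Dlk1* and *Dcn* UMIs per 10000 that passed the cycle limit. *Wt1*, a transcription factor of Sertoli cells, was at 424 and 380 CPM against 6.24 and 12. *Fshr*, the receptor for follicle-stimulating hormone, was at 313 and 324 CPM against 3.64 and 8.59. *Inha*, the inhibin alpha subunit, was at 898 and 1016 CPM against 11.4 and 28.2. Sertoli genes outside the rule were thus far above the level of these stromal cells in both libraries. The stromal cells also had to hold fewer than 10 UMIs per 10000 of the rule's Sertoli genes. They had to meet its *Acta2*, *Myh11* and *Tagln* limit and its germ cell limit as well. The gap was therefore largely set by how both groups were chosen and is no test of the label.

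Genes of other cell types were present as well, and those of erythrocytes at high levels in the control. Myoid markers summed to 207 CPM in control and 217 in *Brca1* vKO members, and stromal markers to 113 and 119. Neutrophil markers summed to 4.09 and 227 CPM. The 14 germ cell markers summed to 82.1 CPM in control and 54.7 in *Brca1* vKO members, with *Dppa3* at 0 UMIs in both. The germ cell limit removed 121 Sertoli cells in the control library and 16 in that of the *Brca1* vKO; their medians were 8.45 and 6.99 UMIs of *Ddx4* and *Dazl* per 10000. Erythrocyte genes summed to 1017 and 189 CPM, and 132 control and 33 *Brca1* vKO members held at least 10 of their UMIs per 10000. Their part in the results below was not tested beyond the values given.

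The first comparison asked what share of the Sertoli cells was cycling in each library. In the control 31.8% (29.9 to 33.7), 739 of 2324 Sertoli cells, passed the cycle limit. The *Brca1* vKO share was 34.4% (33.1 to 35.9), 1555 of 4514. The ratio of the shares was 1.08 (0.992 to 1.18), an interval that holds 1. Over all alternatives the ratio ran from 0.976 to 1.16, and some intervals, given below, lie above 1. The ratio was 1.02 (0.934 to 1.11) without the germ cell limit, with 832 and 1567 cycling cells, 1.02 (0.920 to 1.14) with a mitochondrial limit of 5%, and 1.04 (0.946 to 1.14) with a cycle limit of 5. After each cell was thinned to 5000 UMIs, which left out 246 and 305 shallower Sertoli cells and applied the rule again, the shares were 30.7% and 33.7% and the ratio 1.10 (0.996 to 1.21). In an alternative chosen after seeing the data, without the cells that held at least 10 UMIs per 10000 of neutrophil, Leydig, erythrocyte, macrophage, endothelial or pericyte genes, 133 control and 41 *Brca1* vKO members, the shares were 29.5% and 34.2% and the ratio 1.16 (1.06 to 1.28). Of cells with at least 50 Leydig gene UMIs per 10000, 1 of 22 and 3 of 46 passed the same limit. Of the stromal cells 12.9% (10.6 to 15.6) and 10.2% (8.79 to 11.7) passed it, a ratio of 0.788 (0.609 to 1.02). Of all retained cells, proliferating Sertoli cells made up 14.6% and 17.8%.

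The cells were spread over a wide range of cycle gene levels. Control members had a median of 23.2 cycle gene UMIs per 10000, with quartiles at 9.40 and 43.8. *Brca1* vKO members had a median of 19.5, with quartiles at 7.71 and 37.6. Non-cycling Sertoli cells had medians of 0.588 and 0.741. No gap lay at the limit: 35 and 73 members held 3 to 3.5 UMIs per 10000, and 53 and 112 cells held 2.5 to 3. With a limit of 2 the cycling cells numbered 876 and 1847, or 37.7% and 40.9%. The lowest member held 3.009 and 3.018, and the highest cell left out 2.9886 and 2.9996. From 3 to 5 UMIs per 10000 lay 3.44% of control and 4.96% of *Brca1* vKO Sertoli cells, a ratio of 1.44 (1.11 to 1.88). At 40 or more lay 9.12% and 7.82%, a ratio of 0.857 (0.721 to 1.02). At 20 or more lay 17.3% and 16.8%, a ratio of 0.976 (0.863 to 1.10). These bands divide the sum that the rule used, and cells are not replicates, so with 1 library each they describe the libraries and not the genotypes.

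**Figure D1:**
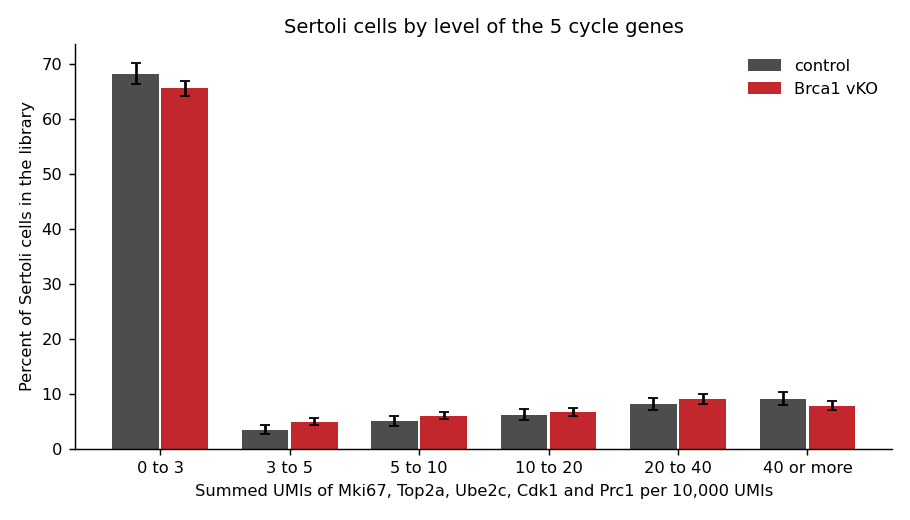
Percent of the Sertoli cells of each library (y axis) by the summed UMIs of the 5 cycle genes per 10000 UMIs (x axis), with bars for control (grey) and *Brca1* vKO (red) and exact 95% intervals as error bars. The intervals are separate only from 3 to 5, where the bars stand at 3.44% and 4.96%.

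The share of cycling cells differed with how many UMIs a Sertoli cell held, in ranges chosen after seeing the data. Below 5000 UMIs it was 57.3% in the control library and 69.2% in that of the *Brca1* vKO. From 5000 to 20000 UMIs it was 17.7% and 20.7%, and above 20000 UMIs 43.9% and 50.3%. The ratio of the libraries within these ranges was 1.21 (0.971 to 1.5), 1.17 (0.994 to 1.37) and 1.15 (1.01 to 1.30), each above the pooled 1.08. For cells with at least 20 cycle gene UMIs per 10000 the ratios in these ranges were 1.21 (0.909 to 1.61), 1.26 (0.981 to 1.63) and 0.946 (0.802 to 1.12). Shallow cells thus passed the cycle limit more often than cells of middle depth in both libraries. The shallowest members held 1018 and 1088 UMIs, and at that depth a single cycle gene UMI passes the limit. At least 20 cycle gene UMIs per 10000 were held by 34.6% and 41.6% of Sertoli cells below 5000 UMIs. From 5000 to 20000 UMIs these shares were 7.24% and 9.11%. Shallow members made up 19.1% of the control members and 13.6% of the *Brca1* vKO members. Without the shallow cells, an alternative also chosen after seeing the data, the pooled shares were 28.8% and 31.9% and the ratio 1.11 (1.01 to 1.22).

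Beside the 5 genes that chose them, cycling Sertoli cells held higher levels of most genes of G2 and mitosis. This contrast with non-cycling cells is the one the rule used, so it is given as a description. A gene counts as 2-fold higher or lower when its log2 difference, with 10 CPM added to both levels, is at least 1 in size, among genes with at least 50 UMIs. In the control 239 of 13510 genes were 2-fold higher, 1.77%, and 6 were 2-fold lower, 0.0444%. In the *Brca1* vKO 199 of 14734 were 2-fold higher, 1.35%, and 3 lower, 0.0204%. The median log2 difference of all genes was 0.0052 and 0.0009.

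In the G2 and mitosis list, 45 of 50 genes were 2-fold higher in control cells and 42 in *Brca1* vKO cells, with median log2 differences of 2.46 and 2.25. *Cenpf*, a kinetochore protein, was at 386 CPM in cycling and 12 in non-cycling control cells, and at 322 and 13.0 in *Brca1* vKO cells. *Hmgb2*, a chromatin protein, was at 803 against 240 CPM and 638 against 233. All 10 cytokinesis genes were 2-fold higher in both libraries, with medians of 2.88 and 2.62. *Kif4*, a midzone kinesin, was at 136 against 2.38 CPM in the control and 117 against 3.12 in the *Brca1* vKO. Of the 18 spindle checkpoint and kinetochore genes 15 were 2-fold higher in each, with medians of 2.75 and 2.48. *Birc5*, a subunit of the chromosomal passenger complex, was at 222 against 8.28 CPM and 198 against 9.54. Of the 17 condensin and cohesin genes 12 and 11 were 2-fold higher. The condensin core subunit *Smc4* stood at 377 against 51.0 CPM and 318 against 58.7, while the cohesin subunit *Smc3* stood at 194 against 149 and 189 against 150. Another cohesin subunit, *Rad21*, stood at 316 against 144 and 290 against 152.

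Outside the fixed cell cycle lists, several genes with large differences in the control were also genes of division. *Kif15*, a spindle kinesin, was at 106 against 2.64 CPM in control cells and 88.8 against 3.28 in *Brca1* vKO cells. *Pbk*, a mitotic kinase, was at 206 against 15.2 CPM and 175 against 17.0. *Pclaf*, which binds the replication clamp PCNA, was at 127 against 6.26 CPM and 98.9 against 7.06. Also among them, *Depdc1a*, *Iqgap3*, *Neil3*, *Knstrn*, *Kif22* and *Aspm*, had control log2 differences of 2.56 to 2.95.

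S-phase genes differed less. Of the 43 in the list 18 were 2-fold higher in the control library and 15 in that of the *Brca1* vKO, with medians of 0.90 and 0.80. *Atad2*, a chromatin factor of replicating DNA, was at 163 against 32.3 CPM in the control and 145 against 36.5 in the *Brca1* vKO. *Pcna*, the replication clamp, was at 129 against 64.1 CPM and 108 against 61.1. Of 21 origin licensing and firing genes 3 were 2-fold higher in each library. *Dbf4*, the activator of the firing kinase, was at 95.9 against 19.4 CPM and 81.3 against 18.8, while the helicase subunit *Mcm6* was at 95.1 against 75 and 99.1 against 84.2. Of 16 nucleotide synthesis genes 3 were 2-fold higher in each, and *Tyms*, the thymidylate synthase, stood at 133 against 41.0 CPM and 122 against 44.5. The 5 cycle genes of the rule are made mainly late in the cycle. After thinning to 5000 UMIs, 14.5% of non-cycling control cells and 15% of non-cycling *Brca1* vKO cells reached the S-phase level of the median member. The group called non-cycling thus includes cells with as many S-phase UMIs as a typical member.

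Replication-dependent histones were among the genes with the largest differences. Of 49 histone genes with enough UMIs in the control 22 were 2-fold higher, and of 56 in the *Brca1* vKO 21 were. *Hist1h2ap* was at 470 CPM in cycling and 6.93 in non-cycling control cells, and at 561 and 11.7 in *Brca1* vKO cells. *Hist1h1b*, a linker histone, was at 855 against 55.1 CPM and 727 against 62.9. Histone genes are near-identical copies of each other, so the level of a single one is uncertain.

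**Figure D2:**
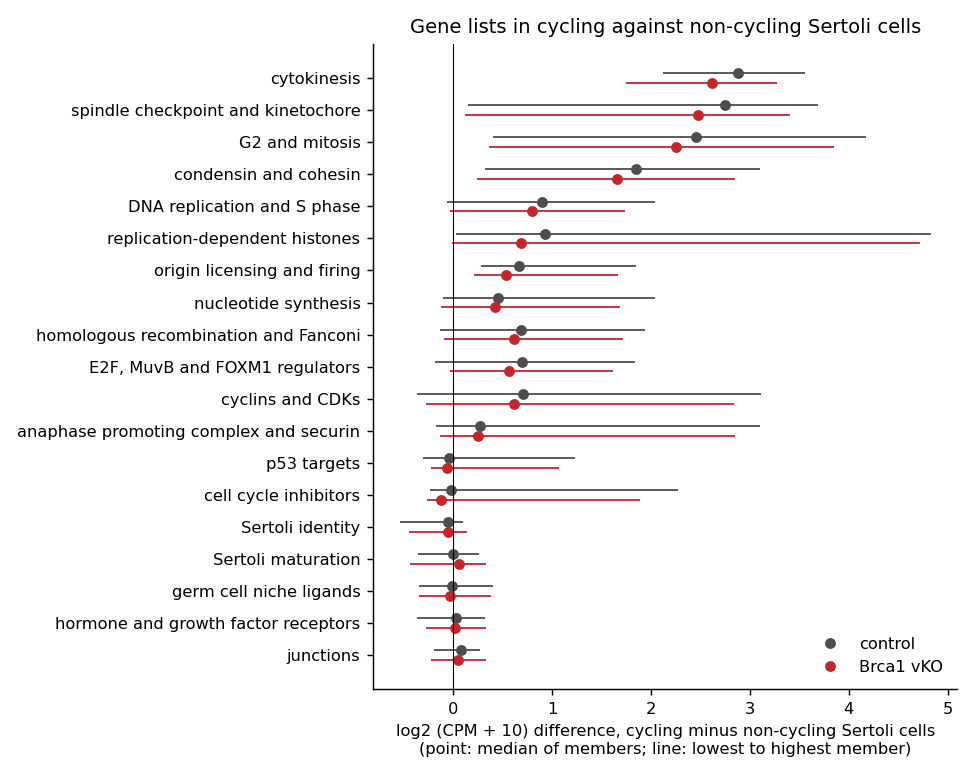
Log2 (CPM + 10) differences between cycling and non-cycling Sertoli cells (x axis) for 19 gene lists (y axis) in control (grey) and *Brca1* vKO (red); points are medians over the members and lines run from the lowest to the highest member. Cytokinesis stands highest at 2.88 and 2.62, and Sertoli identity lies at -0.05 in both.

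Some G1 cyclins, kinases and inhibitors differed in level between members and dividing stromal cells, and others did not. *Ccnd2*, a D-type cyclin of G1, was at 371 CPM (363 to 379) in cycling and 477 (470 to 484) in non-cycling control cells, and at 419 (413 to 425) and 506 (501 to 512) in *Brca1* vKO cells. It was thus lower in cycling cells of both libraries. In cycling stromal cells *Ccnd2* was at 114 and 160 CPM. *Cdk6*, a G1 kinase, was at 102 and 83.7 CPM in members and at 3.12 and 6.87 CPM in cycling stromal cells. *Ccnd3* went the other way, with 27.2 and 23.7 CPM in members against 183 and 197 in cycling stromal cells. *Cdkn1c*, a CDK inhibitor, was at 1.95 and 2.06 CPM in members and at 273 and 258 in cycling stromal cells. *Cdk4* was also lower in members, at 230 (224 to 237) and 201 CPM (197 to 205) against 290 (267 to 315) and 260 (242 to 279). *Ccnd3*, *Cdkn1c* and *Ccnd1* were named after their values were seen. *Cdkn1b*, another inhibitor, was at 66.9 and 62.9 CPM against 63.4 (52.7 to 75.7) and 65.6 (56.6 to 75.6), within counting error.

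Of the cell cycle inhibitors 16 passed the filter in control and 15 in *Brca1* vKO cells, and in each 1 was 2-fold higher in cycling cells, *Cdkn2c*, and 0 were lower. *Cdkn2c* encodes an inhibitor of CDK4 and CDK6. It was at 80.1 CPM (76.3 to 84.0) in cycling and 8.64 (7.68 to 9.68) in non-cycling control cells, and at 60.2 (58.0 to 62.5) and 8.91 (8.14 to 9.72) in *Brca1* vKO cells. *Cdkn1b*, the inhibitor through which thyroid hormone is known to slow Sertoli cell division, was at 66.9 against 49.4 CPM and 62.9 against 49.5. *Cdkn1a*, a p53 target, was at 2.66 and 3.53 CPM in members. Of the p53 targets 28 and 29 had enough UMIs, and 1, *Psrc1*, was 2-fold higher, against 1.77% and 1.35% of all genes. *Psrc1* is also in the G2 and mitosis list.

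**Figure D3:**
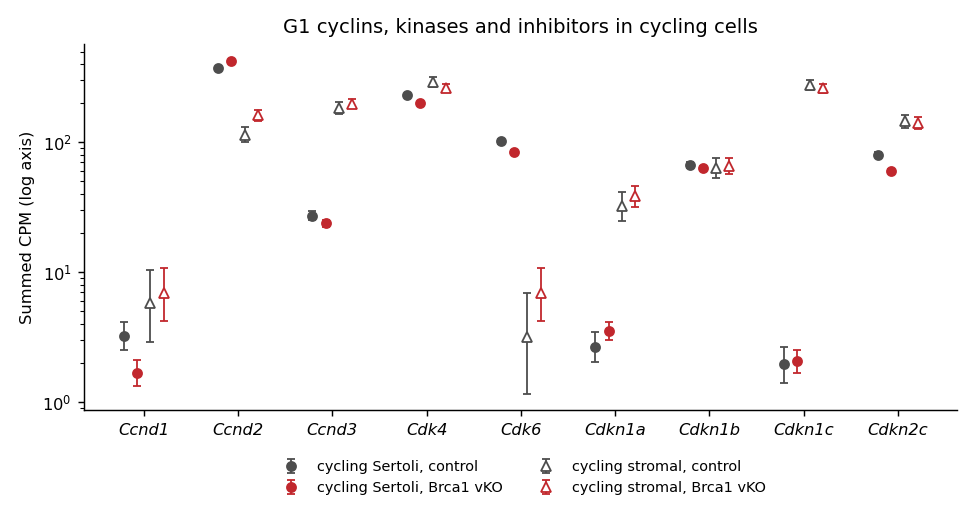
Summed CPM (log axis) of 9 G1 cyclin, kinase and inhibitor genes (x axis) in proliferating Sertoli cells (circles) and cycling stromal cells (triangles) of control (grey) and *Brca1* vKO (red), with exact 95% Poisson intervals. *Ccnd2* and *Cdk6* lie higher in Sertoli cells, and *Ccnd3*, *Cdk4*, *Cdkn1a*, *Cdkn1c* and *Cdkn2c* lie higher in stromal cells, in both libraries.

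The members were next ordered by the share of G2 and mitosis UMIs in the sum of the S-phase and G2 and mitosis lists, and cut into groups of equal size, S-leaning, middle and M-leaning. This used 598 control and 1344 *Brca1* vKO members with at least 5000 UMIs. The order is built from list genes, so those genes describe it and do not test it. *Ccne2*, the S-phase cyclin, was at 25.2, 5.64 and 2.24 CPM along the order in the control and at 18.2, 5.23 and 2.13 in the *Brca1* vKO. *Ccnb1*, the mitotic cyclin, went from 13.4 to 72.7 and 235 CPM in the control and from 16.0 to 63.3 and 209 in the *Brca1* vKO. The histone gene *Hist1h1b* was at 862, 893 and 734 CPM in the control and 688, 713 and 786 in the *Brca1* vKO. *Hist1h2ap* was at 492, 472 and 422 CPM and at 522, 552 and 620. Only control *Hist1h2ap* was thus highest in S-leaning cells, although histones are made in S phase. The group names give a place in the order and not a measured phase. *Cdkn2c*, which is in neither list, was at 51.7, 70.0 and 127 CPM and at 40.8, 53.4 and 99.5 CPM. *Cdkn1b* was at 47.3, 61.3 and 102 CPM and at 45.2, 58.3 and 98.0 CPM. These inhibitors were thus highest in the M-leaning group of both libraries.

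*Brca1*, which codes for a repair protein of homologous recombination, ran the opposite way. The gene lies on the minus strand at chr11:101488764-101551955 of GRCm38. Along the order it was at 83.0 (76.2 to 90.3), 55.2 (50.5 to 60.2) and 34.9 CPM (29.9 to 40.5) in the control. In the *Brca1* vKO it was at 63.0 (59.3 to 67.0), 35.1 (32.5 to 37.9) and 30.3 CPM (27.0 to 33.8). It was thus highest in S-leaning cells of both libraries, and the intervals of the M-leaning groups overlap between libraries. Over all members it was at 58.7 CPM (55.5 to 62.1, 1236 UMIs) in the control library and 43.9 (42.0 to 45.8, 2041 UMIs) in that of the *Brca1* vKO, a ratio of 0.747 (0.696 to 0.803). In non-cycling Sertoli cells it was at 11.3 CPM (10.2 to 12.5) and 9.95 CPM (9.14 to 10.8), with a ratio of 0.882 (0.773 to 1.01). In cycling stromal cells it was at 87.3 CPM (74.6 to 102) and 52.2 CPM (44.2 to 61.2). The lower *Brca1* level was thus not particular to the members. The files do not show whether the counted reads cover the deleted part of the gene, so these levels do not check the genotype. Its partner *Bard1* was at 44.4 against 4.20 CPM in cycling and non-cycling control cells and at 36.1 against 4.05 in *Brca1* vKO cells. Of the 28 homologous recombination and Fanconi genes 12 were 2-fold higher in cycling cells in the control library and 11 in that of the *Brca1* vKO.

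Genes of Sertoli function were present in cycling cells. Of the Sertoli identity genes 20 and 21 passed the filter and 0 were 2-fold different, where few of all genes were. In the control 16 of 20 were lower in cycling cells and in the other library 11 of 21, with a median of -0.05 in both, where 48.4% and 49.7% of all genes were lower. *Aard* was at 3042 against 3768 CPM in control cells, a ratio of 0.808 (0.800 to 0.815), and at 3252 against 3873 in *Brca1* vKO cells. *Inha* was at 898 against 1117 and 1016 against 1197 CPM. *Cst12*, a cystatin gene, was at 1482 against 1768 and 1617 against 1825 CPM, and *Cited1*, a transcriptional coactivator gene, at 560 against 727 and 560 against 686. *Wt1* was slightly higher, at 424 against 395 and 380 against 355 CPM. *Sox9*, the sex-determining factor, was at 377 CPM in cycling and 369 in non-cycling control cells. *Kitl*, a ligand for the germ cell receptor KIT, was at 829 CPM (817 to 841) against 809 (799 to 818) in the control and 829 (821 to 837) against 825 (818 to 833) in the *Brca1* vKO. Of the junction genes 17 and 20 passed the filter and 0 were 2-fold different, and of the hormone and growth factor receptors 26 passed in each and 0 were. With 1.77% and 1.35% of all genes 2-fold higher and fewer lower, counts of 0 in lists of this size say nothing particular about them.

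Some Sertoli genes were lower in cycling cells without reaching 2-fold. *Fabp3*, a fatty acid carrier, was at 141 CPM (136 to 146) against 243 (238 to 248) in the control and 137 (134 to 141) against 235 (231 to 239) in the *Brca1* vKO. Along the order it was at 181, 132 and 104 CPM in the control and 165, 130 and 105 in the *Brca1* vKO. *Hsd17b1*, a steroid dehydrogenase, was at 156 against 232 CPM and 233 against 321. *Rhox8*, a gene of the rule, was at 966 against 1368 CPM and 898 against 1196. It was lower at each step of the order, 1086, 934 and 840 CPM in the control and 991, 879 and 764 in the *Brca1* vKO. *Clu* also fell along the order, at 2364, 2328 and 2187 CPM in the control and 2481, 2444 and 2380 in the *Brca1* vKO. The other genes of the rule did not, with *Cst9* at 1386, 1169 and 1403 CPM and 1336, 1290 and 1466, and *Amhr2* at 271, 273 and 285 CPM and 240, 252 and 247. Among the genes lowest in cycling control cells, *Tmem150a* was at 19.0 against 42.4 CPM and 22.5 against 42.2, and *Prcd* at 56.5 against 107 and 46.8 against 81.4. *Wnt6*, a signalling ligand, was at 302 against 386 CPM and 285 against 364.

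*Gdnf*, the ligand that maintains spermatogonial stem cells, was higher in cycling cells, though not 2-fold. It was at 46.8 CPM (43.9 to 49.8) against 32.9 (31.0 to 34.9) in the control and 59.4 (57.2 to 61.6) against 43.3 (41.6 to 45.1) in the *Brca1* vKO. Along the order it was at 24.7, 51.2 and 71.0 CPM in the control and 44.2, 60.9 and 83.1 in the *Brca1* vKO. In the control the S-leaning cells (21.1 to 28.8) were thus below the non-cycling cells. In the *Brca1* vKO the interval of the S-leaning cells (41.0 to 47.5) overlapped that of the non-cycling cells. *Gdnf* was thus highest in M-leaning cells of both libraries, while *Kitl* was at 779, 885 and 823 CPM and 804, 860 and 830. Of the niche ligands 17 and 20 passed the filter and 0 were 2-fold different. *Gdnf*, *Hsd17b1*, *Fabp3* and the genes followed along the order were named after their values were seen.

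**Figure D4:**
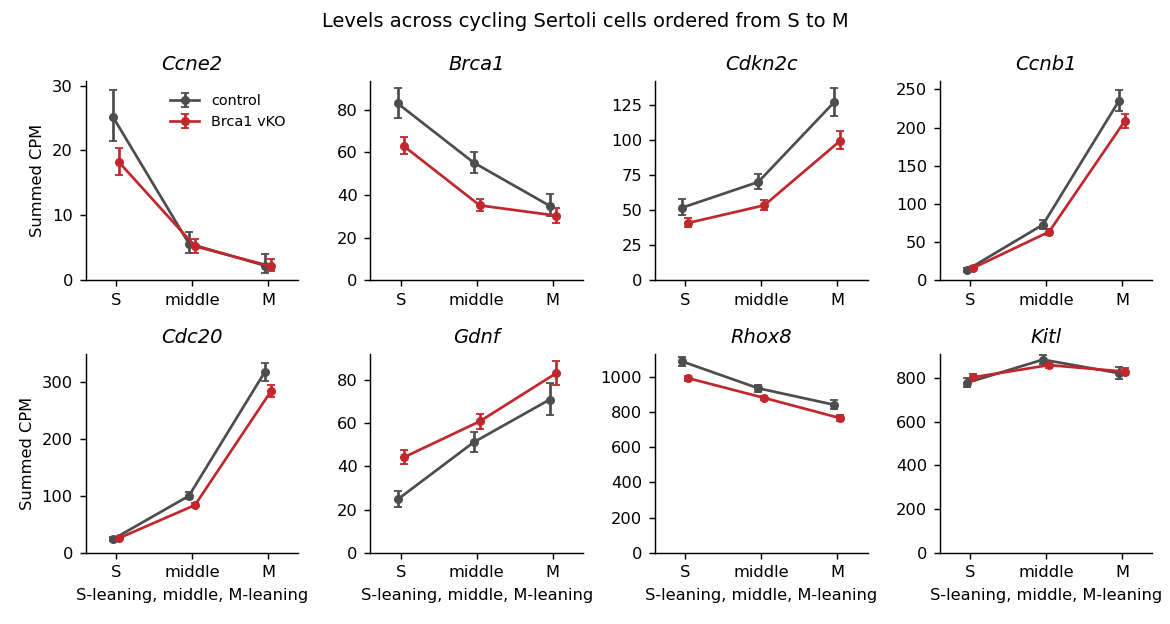
Summed CPM (y axes) of 8 genes in S-leaning, middle and M-leaning proliferating Sertoli cells (x axes) of control (grey) and *Brca1* vKO (red), with exact 95% Poisson intervals. *Brca1* goes from 83.0 to 34.9 CPM in the control and *Gdnf* from 24.7 to 71.0, while *Kitl* stays between 779 and 885.

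Of the 6 genes 2-fold lower in cycling control cells 4 were Leydig markers, and the 3 in the *Brca1* vKO were as well. In the control they were *Cyp11a1* at 0.95 against 34.1 CPM, *Hsd3b1* at 0.760 against 33.2 and *Cyp17a1* at 0.665 against 25.4, enzymes of androgen synthesis, and *Insl3* at 0.0950 against 12. The 5 Leydig markers summed to 13.5 CPM in control members and 126 CPM in non-cycling cells, where 20 of 1585 cells held at least 10 of their UMIs per 10000. In the *Brca1* vKO they summed to 34.8 and 128 CPM, with 2 and 21 such cells. *Ren1*, the renin gene, was at 0.190 against 40 CPM in the control and 3.27 against 7.93 in the *Brca1* vKO.

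The second comparison asked how proliferating Sertoli cells differed between genotypes. Of 13906 genes 16 were 2-fold higher in the *Brca1* vKO, 0.115%, and 7 were 2-fold lower, 0.0503%. The counts depended on the CPM added, with 46 higher and 52 lower when 1 CPM was added and 3 and 3 when 50 CPM was. Without the germ cell limit 14 were higher and 50 lower, and with a cycle limit of 20, 15 and 2. The median log2 difference of all genes was 0.0007. No gene of the S-phase, G2 and mitosis, cytokinesis, spindle, condensin, histone or homologous recombination lists was among them.

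*Rbfox1*, an RNA splicing factor known from neurons and muscle, had the largest log2 difference with 10 CPM added, 4.50, while genes near 0 in the control had larger ratios. The gene lies on the plus strand at chr16:5885355-7411526 of GRCm38. It was at 43.9 CPM (41.1 to 46.8, 924 UMIs) in control and 1213 CPM (1203 to 1223, 56414 UMIs) in *Brca1* vKO members, a ratio of 27.6 (25.9 to 29.5). In non-cycling Sertoli cells it was at 74.5 and 1357 CPM. In cycling stromal cells it was at 226 and 222 CPM. The difference was therefore present in dividing and non-dividing Sertoli cells, and the cycling stromal cells of the same libraries had about the same level.

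Several genes on chromosome 2 also differed, in both directions. *Gchfr*, a regulator of tetrahydrobiopterin synthesis, had 3 UMIs in control members and 1144 in *Brca1* vKO members, 0.143 and 24.6 CPM, a ratio of 173 (58.9 to 838). *Frmd5* was at 3.94 and 26.2 CPM, *Stard9*, a mitotic kinesin, at 67.2 and 181 CPM, and *Ehd4*, a membrane trafficking protein, at 42.9 and 100 CPM, a ratio of 2.33 (2.17 to 2.51). *AA467197* was at 44.1 and 2.19 CPM, a ratio of 0.0497 (0.0401 to 0.0610). These 5 genes lie between 119 and 123 Mb, where 5 of 69 tested genes, 7.25%, were 2-fold different against 0.165% of all. The window was set by the positions of these genes, so its share was bound to be high and is no test. In non-cycling cells *Frmd5* was at 3.38 and 25.4 CPM, *Stard9* at 55.6 and 176, *Ehd4* at 38.7 and 94.5, and *AA467197* at 50 and 3.58, so each differed in the same direction there. With 1 library of each genotype, the genotype and any other difference between the mice cannot be told apart.

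*Aldh1a2*, which makes retinoic acid, was at 2.52 CPM in control and 17.4 in *Brca1* vKO members. *Drd4*, from the Sertoli maturation list, was at 9.31 and 28.7 CPM, *Rims2* at 8.65 and 38.1 CPM, and *Fam155a* at 154 and 324 CPM. *Eif3j2*, which has a near-identical copy, was at 2.28 and 21.7 CPM. Lower in the *Brca1* vKO were *Vnn1*, a pantetheinase, at 65.6 and 20.9 CPM, and *Ctsh*, a lysosomal protease, at 65.4 and 27.0 CPM. Each of these genes differed in the same direction in non-cycling cells. There *Aldh1a2* was at 1.32 and 18.8 CPM, *Drd4* at 14.5 and 42.4, *Rims2* at 4.38 and 36.9, and *Fam155a* at 169 and 368. *Eif3j2* was at 2.56 and 22.8 CPM, *Vnn1* at 76.9 and 29.8, and *Ctsh* at 82.9 and 32.8.

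The other genes past 2-fold were those of blood cells. The neutrophil genes *S100a9*, *S100a8*, *Camp* and *Ngp* were at 85.7, 67.7, 33.6 and 30.6 CPM in *Brca1* vKO members. In control members *S100a8* and *Ngp* had 0 UMIs. Against a floor of 3 UMIs per library they were at least 475-fold and 214-fold higher in the *Brca1* vKO, and the exact 95% intervals used for the other ratios begin lower, at 386 and 174. Of the neutrophil UMIs of the *Brca1* vKO members 92.3% came from 4 of 1555 cells. *Stfa1* and *Cstdc5*, stefin genes of myeloid cells, were at 13.1 and 14.9 CPM in *Brca1* vKO members and at 0 and 0.0475 CPM in control members. The haemoglobin genes were lower in the *Brca1* vKO, *Hbb-bs* at 524 and 104 CPM, *Hba-a1* at 332 and 53.3, *Hba-a2* at 91.4 and 17.1 and *Hbb-bt* at 66.1 and 13.8. Among cells with at least 20 cycle gene UMIs per 10000 this direction turned, with log2 differences of 0.39 for *Hbb-bs*, 0.20 for *Hba-a1*, 0.33 for *Hba-a2* and 0.55 for *Hbb-bt*. In control members 81.7% of the erythrocyte UMIs came from 4 cells and in *Brca1* vKO members 74.4%. Without the members that hold genes of other types, 10 genes were 2-fold higher and 5 lower.

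**Figure D5:**
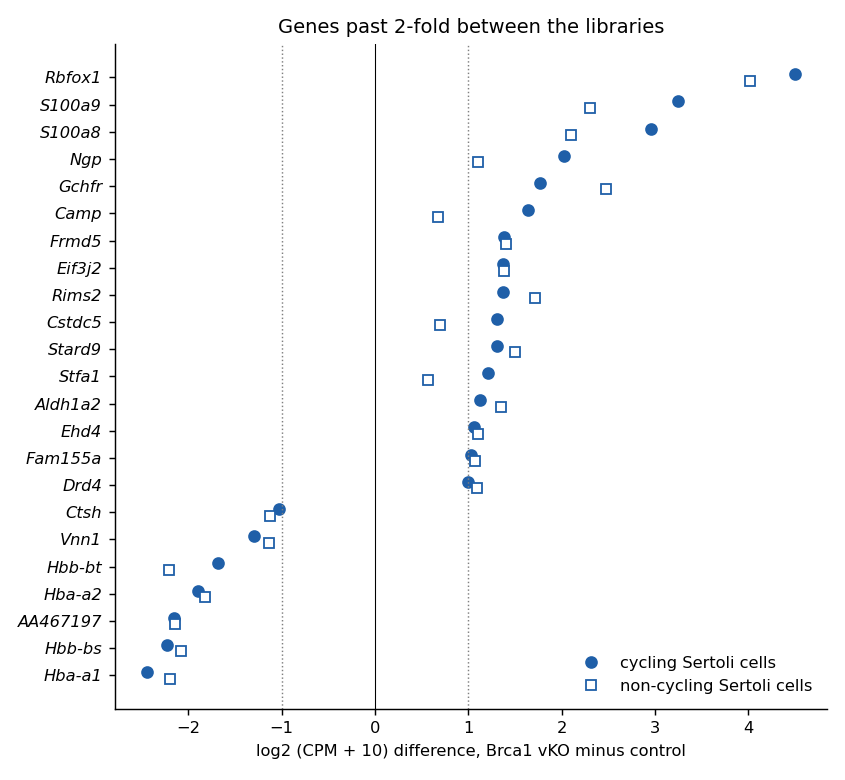
Log2 (CPM + 10) difference between the *Brca1* vKO and control libraries (x axis) for the 23 genes past 2-fold in proliferating Sertoli cells (y axis), in cycling (filled circles) and non-cycling Sertoli cells (open squares); dotted lines mark 2-fold. *Rbfox1* stands furthest to the right at 4.50 in cycling and 4.02 in non-cycling cells.

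Several lists of cell cycle genes had slightly lower levels in *Brca1* vKO members, with 0 genes past 2-fold. All 50 G2 and mitosis genes were lower, with a median log2 difference of -0.20, while in non-cycling cells 16 of 50 were lower and the median was 0.03. All 10 cytokinesis genes were lower, with a median of -0.23, and 37 of 43 S-phase genes, with a median of -0.12. Of the spindle checkpoint and kinetochore genes 17 of 18 were lower (median -0.24), of the cyclins and CDKs 14 of 17 (-0.18), of the condensin and cohesin genes 15 of 17 (-0.14), of the homologous recombination and Fanconi genes 21 of 28 (-0.10) and of the origin licensing and firing genes 18 of 21 (-0.07). Of the cell cycle inhibitors 11 of 16 were lower (-0.07). Other lists had medians nearer 0, with 11 of 20 anaphase promoting complex and securin genes lower (median -0.02), 10 of 16 nucleotide synthesis genes (-0.03), 13 of 19 E2F, MuvB and FOXM1 regulators (-0.05) and 42 of 57 histone genes (-0.06). Of all genes 49.8% were lower. The members were chosen on the summed cycle genes, and *Brca1* vKO members held a lower median of them, 19.5 against 23.2 UMIs per 10000. Some genes are also in more than 1 list. These counts are therefore not independent of the rule or of each other. *Top2a*, in the rule, was at 652 and 512 CPM in control and *Brca1* vKO members, and *Hmgb2* at 803 and 638. Among cells with at least 20 cycle gene UMIs per 10000, the G2 and mitosis median was -0.08, the cytokinesis median -0.07 and the S-phase median -0.05. The G2 and mitosis and the cytokinesis medians thus moved by over 0.1, and the S-phase median by less. This limit is on the sum that the rule used, so these shifts are not independent of the rule. *Brca1* itself kept its difference among these cells, with a ratio of 0.734 (0.665 to 0.810). Sertoli identity genes had a median of 0.03, and *Hsd17b1* was at 156 and 233 CPM. Hormone and growth factor receptors were higher in 24 of 26, with a median of 0.12, and in non-cycling cells in 21 of 26, with a median of 0.07. Immediate early and stress genes, which also respond to tissue handling, had a median of 0.15 with 13 of 20 higher, and in non-cycling cells of 0.25 with 15 of 20 higher. *Fos*, an immediate early gene, was at 1337 and 1636 CPM in members and at 3713 and 5796 in cycling stromal cells. Their part in the other differences was not tested. *Igf1r*, the receptor for insulin-like growth factor, was at 253 and 299 CPM and *Fshr* at 313 and 324.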

How the data were processed

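The authors digested PD7 testes, loaded more *Brca1* vKO than control cells, and aligned the reads to mm10 and used Cell Ranger 6.0.2 to count. Deposited tables hold raw UMI counts per gene and cell, 120568700 UMIs in the control table and 165062097 in the other. Here, UMIs were summed over the cells of a group and scaled per 1000000 (CPM), and 10 CPM was added before log2. The members and the 32 gene lists were chosen with earlier results of these data known. Named genes are those of the rule, *Brca1*, up to 5 per list with the most UMIs, the 8 largest and smallest genotype differences, and the 10 largest and smallest cycling differences outside the cell cycle lists, among genes with at least 200 UMIs; the rest were chosen after their values were seen. No cell types from the authors were used. Intervals are exact Clopper-Pearson, Poisson and conditional binomial intervals (scipy 1.17.1, Python 3.11.15). Doublets were scored with Scrublet in scanpy 1.11.5 and kept. Alternatives varied the limits of the rule, depth, doublets, added CPM and scaling (TMM, edgeR 4.0.16). Gene positions came from GENCODE on GRCm38. The contrast script was tested on simulated counts. Some items that the naming rule selects are not reported here.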

Additional observations from a re-analysis of the deposited data

Results flagged for a closer look

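Among 194 named genes, 8 had cycling to non-cycling ratios on opposite sides of 1 in the libraries, beyond counting error, and 28 had genotype ratios on opposite sides of 1 in cycling and non-cycling cells. Those with at least 1 CPM ratio, with no CPM added, past 2-fold, 5 and 9 genes, are given here, a size limit set after the longer list was seen. With 10 CPM added, only *Ren1* among the 9 and none of the 5 reached 2-fold in these contrasts. With 1 library per genotype the differences were not tested. Between cycling and non-cycling cells, in the control and then the *Brca1* vKO, *Cdh5* stood at 3.23 and 0.484, *Flt1* at 46.5 and 0.319, *Cox4i2* at 2.91 and 0.357, *Rgs5* at 6.93 and 0.168, and *Notch3* at 6.07 and 0.392. These are endothelial and pericyte genes, and in control members 46.8% of endothelial and 85.7% of pericyte UMIs came from 4 of 739 cells.

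Between the *Brca1* vKO and the control, in cycling and then non-cycling cells, *Cdh5* stood at 0.273 and 1.82, *Flt1* at 0.0630 and 9.19, *Esam* at 0.494 and 1.84, *Rgs5* at 0.136 and 5.60, and *Notch3* at 0.302 and 4.67. The Leydig genes stood at 5.25 and 0.811 for *Cyp11a1*, 5.40 and 0.751 for *Hsd3b1*, and 25.6 and 0.710 for *Insl3*, and *Ren1* at 17.2 and 0.198. In control members *Insl3* had 2 UMIs and *Ren1* 4. Of the Leydig UMIs of *Brca1* vKO members 42.7% came from 4 of 1555 cells, and of those of non-cycling control and *Brca1* vKO cells 37.6% and 34.7% came from 4 cells each.

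Of the 28 genes, 17 are in the cell cycle lists, and 16 of these were lower in cycling and higher in non-cycling *Brca1* vKO cells. They include *Ube2c*, *Cdk1* and *Mki67*, whose sum the rule used to split the cells, so this count is not independent of the rule. The exception was *Pttg1*, the securin gene, at 1.12 and 0.585.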

How the results depend on the processing

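No paired analysis was possible because each genotype had 1 library. Of 82 values recomputed for the 8 main results, 65 kept within the counting interval or within 1.5 times the count. The share ratio ran from 0.976 to 1.16, and the value of 0.976 was that with a cycle limit of 20. The *Brca1* ratio ran from 0.734 to 0.774. With 1 CPM added, 46 genes were 2-fold higher and 52 lower in *Brca1* vKO members, and cycling cells had 453 higher and 32 lower in the control and 379 and 30 in the *Brca1* vKO. With 50 CPM added the counts were 3 and 3, 96 and 0, and 72 and 0. Taking the mean of single cells left 1 gene lower in cycling *Brca1* vKO cells. Without the germ cell limit 50 genes were lower in *Brca1* vKO members. Without cells holding genes of other types 10 were higher. With a cycle limit of 20, 2 were lower, and the log2 differences of *Hbb-bs*, *Hba-a1*, *Hba-a2* and *Hbb-bt* turned to 0.39, 0.20, 0.33 and 0.55. The cause was not tested. Removing cells with genes of other types, removing cells under 5000 UMIs and the limit of 20 were chosen after seeing the data. Of the 32 list medians between genotypes, 11 moved by over 0.1 with a cycle limit of 20, 9 each with single-cell means, 1 CPM and 50 CPM, 6 without cells of other types, 4 with thinning, 3 without doublets and 0 with TMM. Of 194 named genes 83 moved with single-cell means, and with a cycle limit of 20, 82 moved and 4 reversed. With 1 CPM and 50 CPM added 60 each moved. Without cells of other types 26 moved, with thinning 17 and without doublets 12. Levels near 1 CPM rest on few UMIs.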
